A study of Oryctolagus cuniculus with 8 samples.

Results

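The genes described here are those whose level in the retina stood on the same side of normal chow after every enriched diet. A gene was a member when its FPKM in all 6 libraries of fat-fed, sucrose-fed and fat- and sucrose-fed rabbits lay above, or in all 6 lay below, both libraries of chow-fed rabbits. FPKM is the number of fragments on a gene, scaled for the length of the gene and the depth of the library. Of 12204 protein-coding genes that reached 1 FPKM in 2 or more libraries, 577 were members. The diets were higher for 239 of them (1.96% of the genes tested) and lower for 338 (2.77%). Members were chosen by these very values, so that their separation from chow is a description, and the counts have no test.

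The study asked what diets rich in fat, sugar or both do to the rabbit retina. Retinal RNA was sequenced in 8 libraries from male wild-type Chinchilla rabbits of about 10 months, 2 libraries for each of 4 diets given for 6 months. The normal diet (ND) was standard chow. The high-fat diet (HFD) added 10% lard and 0.5% cholesterol, the high-sucrose diet (HSD) added 40% sucrose, and the high-fat high-sucrose diet (HFSD) added 35% sucrose to the same shares of lard and cholesterol as the HFD. The labels do not say whether the 2 retinas of a diet came from separate animals, so that p values measure the spread between these retinas only. The same 2 ND libraries stand behind every comparison, and a level at which both of them happened to be high or low would appear as a shared effect of all diets.

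The retina is a layered nervous tissue in which rods and cones turn light into a neural signal. Behind it lies the retinal pigment epithelium, a pigmented cell sheet that takes up vitamin A, converts it back to the 11-cis form that photoreceptors need, carries nutrients and ions, and holds melanin. The conversion is known as the visual cycle. Müller glia, astrocytes, vessels and microglia make up the supporting cells. In a bulk sample of tissue, fewer cells of a type and less RNA per cell cannot be told apart.

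The recovered depth of the libraries lay between 15764577 and 22785832, at which 1 fragment on a gene of 1000 bases was worth 0.0634 to 0.0439 FPKM. As a check of the tissue, cone genes summed to between 932 and 1719 FPKM and ganglion cell genes to between 642 and 1070 FPKM over the 8 libraries. One library stood apart in muscle genes: the summed level of skeletal and heart muscle genes was 768 FPKM in HSD replicate 2 and between 16.4 and 19.9 FPKM in the others. Myelin genes also varied, with 768 FPKM in ND replicate 1 and 104 in ND replicate 2. Matrix genes came to 691 and 303 FPKM in the ND libraries and 144 to 422 in the diets, and blood genes ran from 1.104 to 83.5 FPKM, highest in ND replicate 1 and HFD replicate 1. None of these 4 lists held a member.

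Across the whole table few genes passed a test. The mean of the 3 diets was compared with ND in limma on log2(FPKM + 1), with Benjamini-Hochberg adjustment over 12204 genes. At an adjusted p under 0.05, 2 genes were higher (0.0164% of those tested) and 1 was lower (0.00819%). Without adjustment, 236 genes (1.93%) were higher and 376 (3.08%) lower at a p under 0.05. Without HSD replicate 2, the library with muscle genes, 1 gene was called higher and 1 lower by limma, and 309 and 416 genes lay beyond both ND libraries. All values called lower or higher without a test below are positions of the libraries and not calls.

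The difference that stood furthest above the spread was in a protein-coding gene that the table gives without a symbol. It was at 23.4 and 15.8 FPKM on ND, at 350 and 251 on HFD, 256 and 240 on HSD, and 259 and 298 on HFSD. Every enriched-diet retina therefore held more than 10 times the level of either ND retina. Its log2 difference was 3.76 (standard error 0.18, adjusted p=0.000859 by limma with Benjamini-Hochberg adjustment). Behind these values stood 154 and 94 fragments on ND and 1355 to 2346 in the diets, on a gene model of 336 bases. With each library left out in turn the adjusted p of this limma test stayed between 0.00351 and 0.00823. What the gene encodes is not given in the sources used here.

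BAG2, a co-chaperone that regulates HSP70, rose. Its level was 37.0 and 36.7 FPKM on ND, 71.3 and 70.1 on HFD, 75.7 and 72.2 on HSD, and 55.8 and 53.7 on HFSD. The 2 retinas of each diet lay close together, and the lowest diet retina was well above ND. The log2 difference was 0.82 (standard error 0.078, adjusted p=0.0401 by limma with Benjamini-Hochberg adjustment). The call was lost with any 1 of the 8 libraries left out, where the adjusted p of limma ran from 0.0705 to 0.156 while the difference kept between 0.81 and 0.83.

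S100A13, a small calcium-binding protein involved in the release of growth factors without a signal peptide, fell. It stood at 28.4 and 38.7 FPKM on ND, 25.5 and 19.2 on HFD, 2.70 and 3.84 on HSD, and 6.64 and 6.74 on HFSD. HFD replicate 1 lay just under the lower ND retina, HFD replicate 2 further below, and the 4 retinas with sucrose lowest. The log2 difference of the 3 diets from ND was -1.91 (standard error 0.17, adjusted p=0.0401 by limma with Benjamini-Hochberg adjustment). This call too was lost with any 1 library left out, with an adjusted p of limma between 0.0558 and 0.120, and without both HSD retinas it was 0.268. Over the 20 alternatives it ran from 0.0185 to 0.9999, the highest in the fit of 2 groups, and was under 0.05 in 7. S100A13 was 1 of 7 tested S100 genes, and none of the other 6 was a member.

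**Figure D1:**
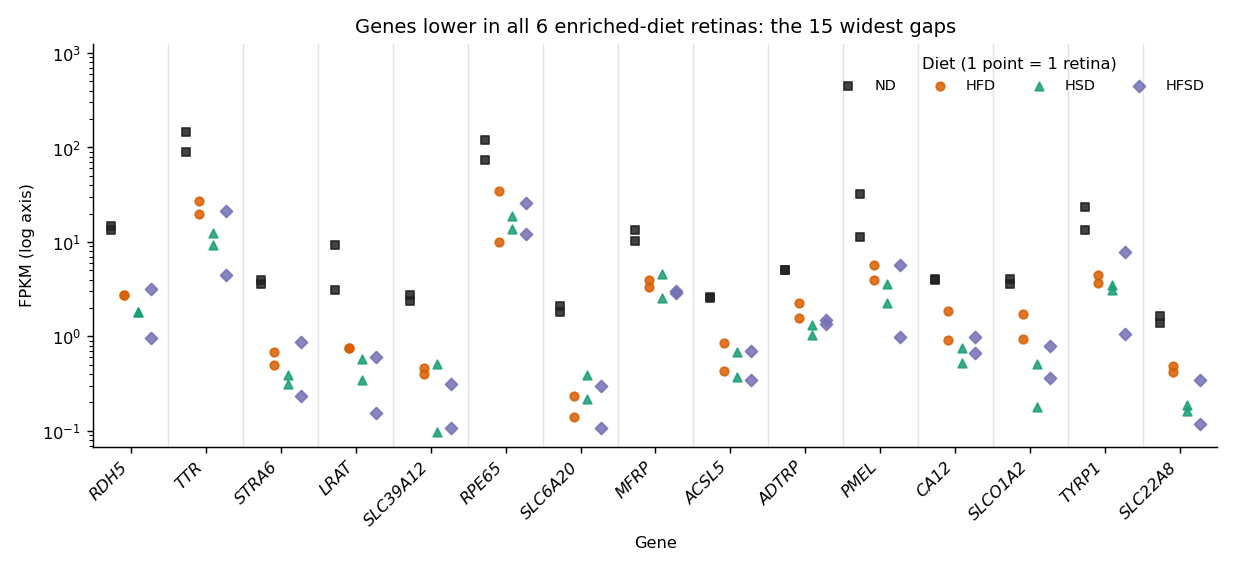
Level of the 15 genes with a symbol and the widest gap below normal chow. The vertical axis is FPKM on a log scale and each point is 1 retina, 2 per diet. Both ND retinas lie above all 6 diet retinas for every gene, as the choice of genes requires, and TTR and RPE65 are the most abundant of them.

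Genes of the visual cycle made up much of the lower end. The gap of a gene is the distance on the log2(FPKM + 1) scale between the nearest ND and the nearest diet retina, and of the 6 genes with a symbol and the widest gap below ND, 5 were visual cycle genes: RDH5, TTR, STRA6, LRAT and RPE65. Of 11 tested genes of the list, 7 were lower in all 6 diet retinas, against 2.77% of all genes, and none was higher. The median log2 difference of the list was -1.16, where that of all genes tested was 0.00. No gene of the list had an adjusted p under 0.05, and 8 of 11 were lower at an unadjusted p under 0.05, beside 3.08% of all genes. Over the 20 alternatives the adjusted p of limma was under 0.05 in 2 for TTR (lowest 0.0138), in 2 for STRA6 and in 5 for RDH5.

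TTR, transthyretin, carries retinol-binding protein and thyroid hormone and is made in the eye by the pigment epithelium. It was at 144 and 88.6 FPKM on ND, 26.9 and 19.998 on HFD, 12.4 and 9.39 on HSD, and 21.4 and 4.52 on HFSD. RPE65, the isomerase that forms 11-cis retinol, was at 119 and 74.6 FPKM on ND, 34.8 and 10.1 on HFD, 18.9 and 13.7 on HSD, and 25.6 and 12.1 on HFSD. Both genes were abundant on ND. The 3 diets overlapped one another in RPE65, and in TTR both HSD retinas lay below both HFD retinas while HFSD overlapped the other diets. The log2 differences were -2.96 (standard error 0.47) for TTR and -2.36 (standard error 0.46) for RPE65, with limma adjusted p of 0.208 and 0.345.

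RDH5, which oxidises 11-cis retinol, had the widest gap of all lower genes. Its values were 14.8 and 13.5 FPKM on ND, 2.72 and 2.73 on HFD, 1.82 and 1.79 on HSD, and 3.21 and 0.956 on HFSD, a log2 difference of -2.28 (standard error 0.26, adjusted p=0.0758 by limma with Benjamini-Hochberg adjustment). Over the 20 alternative settings the adjusted p of RDH5 ran from 0.00496 to 0.268 in limma, and it was under 0.05 in 5 of them. STRA6, the receptor that takes up retinol, stood at 3.97 and 3.57 FPKM on ND and between 0.237 and 0.864 in the 6 diet retinas. LRAT, which stores retinol as esters, stood at 9.29 and 3.13 FPKM on ND and between 0.155 and 0.749 in the diets. That the diet retinas did not overlap ND in these 3 enzymes and carriers follows from the choice of members. LRAT differed nearly 3-fold between the ND retinas themselves.

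The remaining members of the list differed less. RDH10, a dehydrogenase of all-trans and 11-cis retinol, was at 8.91 and 11.4 FPKM on ND and between 3.79 and 7.36 in the diets. RDH11 was at 47.9 and 49.3 FPKM on ND and between 35.5 and 47.4 in the diets, a gap of 0.015 that closed when each library was scaled to an equal total. The other 4 tested genes of the list were not members. Among them RLBP1, the 11-cis retinal carrier that Müller glia make as well, was at 150 and 305 FPKM on ND and ran from 92.6 to 229 in the diets, so the groups overlapped.

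Other markers of the pigment epithelium were lower in part. Of 16 tested genes, 5 were lower in all 6 diet retinas and none was higher, beside 2.77% and 1.96% of all genes. The median log2 difference was -0.53, where that of all genes was 0.00. MFRP, a membrane protein needed for normal eye length, was at 10.1 and 13.4 FPKM on ND, 3.95 and 3.31 on HFD, 2.56 and 4.58 on HSD, and 3.04 and 2.85 on HFSD. It is known to share a transcript with C1QTNF5, which was at 26.2 and 24.7 FPKM on ND and from 5.63 to 20.3 in the diets, and fragments on the shared part cannot be assigned to either. C1QTNF5 was named after its values were seen.

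The zinc transporter SLC39A12 was at 2.76 and 2.38 FPKM on ND and between 0.0978 and 0.508 in the diets. The proline transporter SLC6A20 stood at 2.08 and 1.80 FPKM against 0.107 to 0.393, and the organic anion transporter SLC22A8 at 1.40 and 1.63 against 0.118 to 0.489. All 3 were low genes. TIMP3, an inhibitor of metalloproteinases laid down in Bruch's membrane, was at 18.1 and 10.4 FPKM on ND, 9.62 and 6.02 on HFD, 1.84 and 3.59 on HSD, and 2.16 and 2.46 on HFSD. In TIMP3, unlike the transporters, HFD replicate 1 came close to ND replicate 2.

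Several markers of the epithelium overlapped between the groups. OTX2, a transcription factor shared with photoreceptors and bipolar cells, was at 81.4 and 104 FPKM on ND and between 91.9 and 99.1 in the diets. MERTK, the receptor for engulfing outer segments, ran from 5.00 to 10.6 FPKM on ND and from 6.53 to 11.2 in the diets. SERPINF1, which encodes the pigment epithelium-derived factor, ran from 3.88 to 4.49 on ND and from 2.82 to 5.10 in the diets. The diet range of all 3 overlapped that of ND. Of the 16 tested markers, 12 had a difference below 0 and 4 above. By limma 7 were lower at an unadjusted p under 0.05, beside 3.08% of all genes.

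Of 8 tested genes of melanin and melanosomes, 3 were lower in all 6 diet retinas, beside 2.77% of all genes, and the median log2 difference was -0.77. Their adjusted p in limma was 0.534 for PMEL, 0.565 for TYRP1 and 0.837 for DCT. PMEL, which forms the fibrils of the melanosome, was at 11.3 and 31.9 FPKM on ND, 5.65 and 3.94 on HFD, 3.58 and 2.23 on HSD, and 5.73 and 0.983 on HFSD. TYRP1, an enzyme of eumelanin synthesis, was at 13.4 and 23.2 FPKM on ND, 3.71 and 4.52 on HFD, 3.51 and 3.13 on HSD, and 7.86 and 1.06 on HFSD. DCT, dopachrome tautomerase, was at 10.5 and 2.01 FPKM on ND and between 0.591 and 1.82 in the diets. PMEL and TYRP1 stood clear of ND, while DCT in ND replicate 2 was next to the diet values. TYR, the first enzyme of the pathway, and MITF, its transcription factor, overlapped between the groups.

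**Figure D2:**
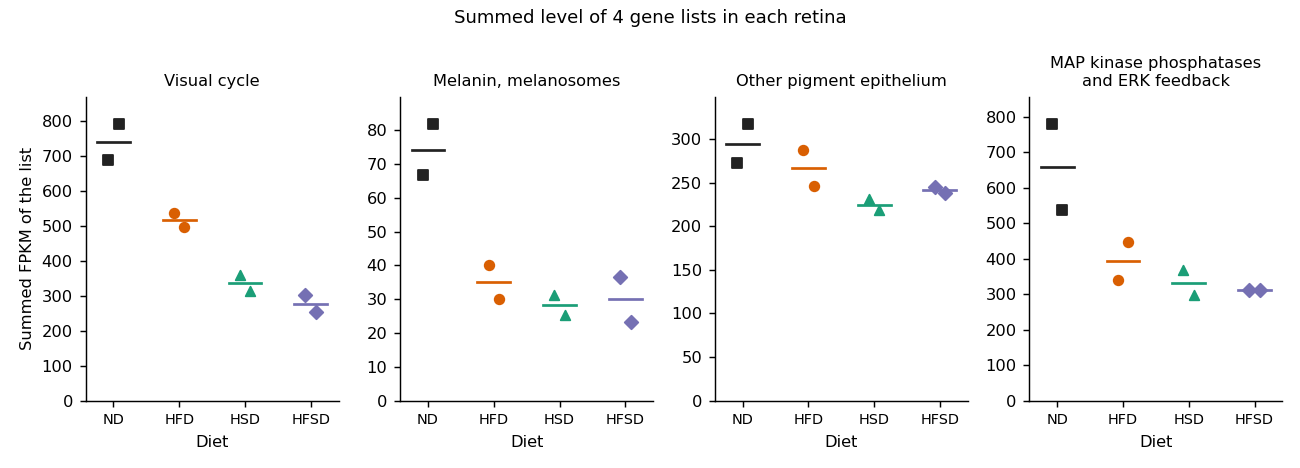
Summed FPKM of 4 gene lists in each retina, by diet. Points are single retinas, the horizontal line is the mean of 2, and the axes start at 0. The visual cycle, melanin and MAP kinase phosphatase sums are higher in both ND retinas than in any diet retina, and the sum of other pigment epithelium markers overlaps between ND and HFD.

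Summed over their genes, these lists separated to unequal degrees. The visual cycle list came to 686 and 790 FPKM on ND, 537 and 497 on HFD, 359 and 312 on HSD, and 303 and 252 on HFSD. The melanin list came to 66.6 and 81.8 FPKM on ND and 23.2 to 40.1 in the diets. The other markers came to 273 and 317 FPKM on ND and 218 to 288 in the diets. Only the last sum overlapped, in HFD replicate 1. Together the 3 lists held 15 members among 35 tested genes, all lower, beside 2.77% of all genes tested. The lists were written with earlier results of these data known. How much pigment epithelium each dissected retina carried was not tested.

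Genes of the ciliary body, iris and optic nerve head, which border the retina, were also checked. Of 9 tested, 3 were lower in all 6 diet retinas, beside 2.77% of all genes: TYRP1, which is on the melanin list too, CA12 and SFRP5. CA12, a carbonic anhydrase of the cell surface, stood at 4.01 and 3.95 FPKM on ND and between 0.520 and 1.85 in the diets. SFRP5, a secreted inhibitor of Wnt, was at 10.1 and 9.27 FPKM on ND and from 2.72 to 6.18 in the diets. The summed level of that list overlapped, with 244 to 360 FPKM on ND and 193 to 386 in the diets. The part of these neighbouring tissues in the values of CA12 and SFRP5 was not tested.

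Of 23 tested carriers of amino acids and organic ions, 6 were lower in all 6 diet retinas, where 2.77% of all genes were, and 1, SLC7A11, was higher. The lower ones were SLC22A4, SLC6A20, SLC22A8, SLC7A10, SLC7A2 and SLC38A2. Among them, SLC6A20 and SLC22A8 are on the list of pigment epithelium markers too, and SLC7A10 is on that of astrocytes. SLC22A4, a carrier of ergothioneine, was at 8.23 and 8.07 FPKM on ND, 1.18 and 2.87 on HFD, 0.860 and 5.97 on HSD, and 0.679 and 4.42 on HFSD, so that retinas of the same diet differed by more than 2-fold. SLC38A2, a carrier of neutral amino acids, differed little, at 44.2 and 42.6 FPKM on ND and 36.6 to 40.2 in the diets, and its separation was lost under scaling to an equal total and voom. SLC7A11, the cystine carrier, was at 4.61 and 5.71 FPKM on ND and from 5.73 to 9.63 in the diets, with a gap of 0.0049 that closed under scaling to an equal total.

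Of 18 genes of the blood-retina barrier, 2 were lower in all 6 (11.1%, beside 2.77% of all genes): SLC22A8, given above, and SLCO1A2. SLCO1A2, an organic anion transporter of barrier cells, stood at 4.07 and 3.55 FPKM on ND, 1.73 and 0.945 on HFD, 0.505 and 0.179 on HSD, and 0.795 and 0.364 on HFSD. The values on HFD were the nearest to ND and those in the sucrose diets the furthest. None of 10 tested endothelial markers and none of 6 of pericytes and smooth muscle was a member. The summed endothelial level was 155 and 156 FPKM in the ND retinas and 134 to 179 in the diets.

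Phosphatases that switch off MAP kinases were examined as a list. Of 16 tested genes of the list, which also holds the Sprouty and SPRED inhibitors of ERK signalling, 4 were lower in all 6 diet retinas, where 2.77% of all genes were, and none was higher. The median log2 difference of the list was -0.17, and no gene was called. DUSP2 was at 493 and 198 FPKM on ND, 59.5 and 124 on HFD, 119 and 62.9 on HSD, and 57.6 and 63.0 on HFSD. DUSP6, which acts on ERK, was at 33.3 and 55.3 FPKM on ND, 20.3 and 16.7 on HFD, 10.7 and 16.8 on HSD, and 18.4 and 11.6 on HFSD. Both stood clear of ND, with log2 differences of -2.02 (standard error 0.41) and -1.42 (standard error 0.26) and limma adjusted p of 0.387 and 0.287. DUSP4 and DUSP7 lay close to ND, with log2 differences of -0.50 and -0.19. The separation of DUSP7 was lost under 2 of the other scalings. None of the 7 tested Sprouty, SPRED and ETV genes was a member.

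Early-response genes, which are transcribed within minutes of a stimulus, varied widely within diets. EGR1, a zinc finger factor of this class, was at 1548 and 468 FPKM on ND, 28.9 and 242 on HFD, 366 and 159 on HSD, and 375 and 131 on HFSD. It was lower in all 6, but ND differed more than 3-fold and HFD more than 8-fold between retinas of the same diet, and the adjusted p was 0.915 in limma. KLF10, a TGF-β-induced zinc finger factor, was higher in all 6, at 2.10 and 1.53 FPKM on ND and 2.16 to 6.18 in the diets, but not under scaling to an equal total or voom. The other 13 tested genes of the list overlapped. The median log2 difference of the list was -0.02.

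Of 16 tested astrocyte genes, 2 were lower in all 6 diet retinas, beside 2.77% of all genes. GJA1, the connexin of astrocytes and Müller glia, was at 36.0 and 14.1 FPKM on ND, 11.7 and 10.1 on HFD, 0.442 and 1.06 on HSD, and 1.26 and 3.97 on HFSD. HFD was near the lower ND retina and the sucrose diets were far below. SLC7A10, a carrier of small neutral amino acids, was the other, at 1.15 and 1.23 FPKM on ND and 0.0446 to 0.586 in the diets. None of 16 Müller glia markers, 14 microglia and macrophage markers or 14 rod genes was a member.

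Several signalling lists held lower members and no higher one, beside 2.77% of all genes lower. They included 3 of 14 Notch and Wnt genes (SFRP5, DLL1 and NKD1), 2 of 20 TGF-β and BMP genes (BMP2 and TGFB3), and 2 of 12 coagulation and kinin genes (F2R and PLAT). TNFSF13B, the B cell survival factor BAFF, was at 4.52 and 1.74 FPKM on ND and 0.269 to 0.701 in the diets. It was the member among 14 tested cytokine, chemokine and adhesion genes. F2R, the thrombin receptor, was at 3.06 and 3.29 FPKM on ND and 0.899 to 2.13 in the diets, and PLAT, tissue plasminogen activator, at 12.97 and 11.7 against 8.84 to 11.3. The separation of PLAT was lost under scaling to an equal total and voom. The interferon-regulated factor IRF1, the growth factors BMP2 and TGFB3, the Notch ligand DLL1 and the Wnt inhibitor NKD1 were lower with gaps under 0.05. Of these, only TGFB3 kept its separation under all 3 other scalings.

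Lipid and sugar genes, which the diets bear on most directly, were mostly not members. The same held for genes at large, of which 2.77% were lower and 1.96% higher members. CIDEA, a lipid droplet protein, was at 5.72 and 4.58 FPKM on ND, 3.22 and 3.19 on HFD, 1.21 and 1.32 on HSD, and 1.32 and 0.591 on HFSD. ACSL5, which activates long-chain fatty acids, was at 2.54 and 2.62 FPKM on ND and 0.349 to 0.848 in the diets. Both were lower in all 6, as the choice of members requires. ACADM, a mitochondrial acyl-CoA dehydrogenase, was higher in all 6, by 0.13 on the log2 scale. None of 19 genes of cholesterol synthesis and uptake, 21 of glycolysis, 20 of sugar sensing, fructose and polyol metabolism or 19 of insulin and IGF signalling was a member. At the shares of all genes, lists of this size can hold none, so nothing is read from that. The medians of these 4 lists lay between -0.06 and -0.01 on the log2 scale.

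**Figure D3:**
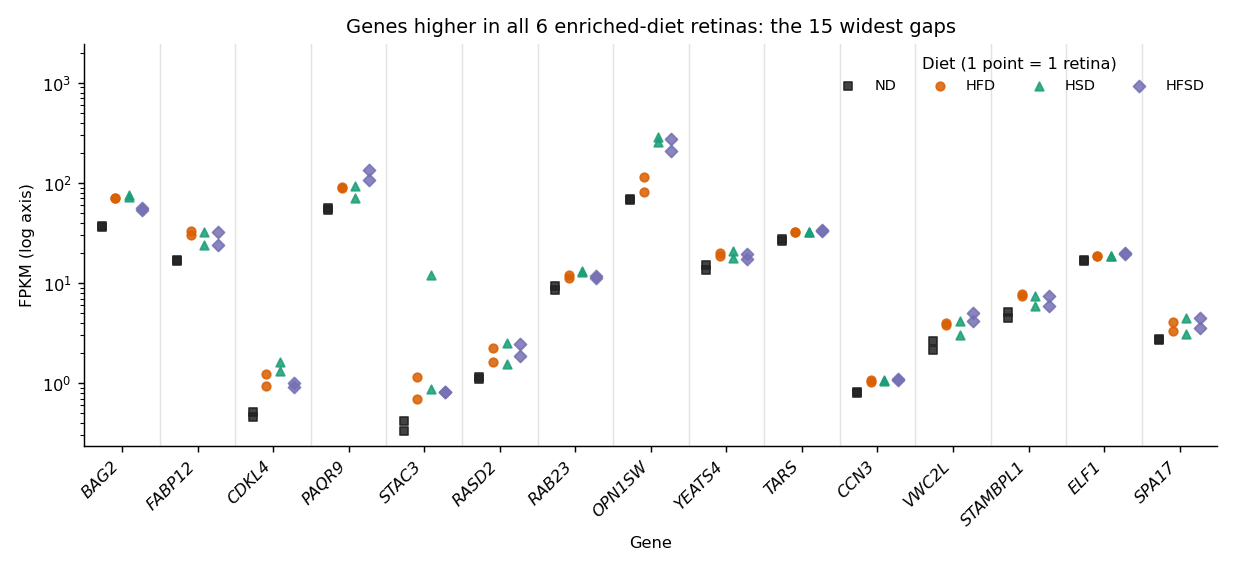
Level of the 15 genes with a symbol and the widest gap above normal chow. The vertical axis is FPKM on a log scale and each point is 1 retina, 2 per diet. The diet retinas lie above ND by less than in the lower genes, with OPN1SW in the sucrose diets as the widest difference and 1 high retina in STAC3.

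The higher genes mostly differed less than the lower ones, and no list held more than 2 of them. OPN1SW, the visual pigment of short-wavelength cones, was at 69.1 and 67.6 FPKM on ND, 114 and 80.9 on HFD, 255 and 290 on HSD, and 276 and 209 on HFSD. The order from ND through HFD to the sucrose diets had no overlap, HSD and HFSD overlapping each other. The log2 difference was 1.42 (standard error 0.16, adjusted p=0.0758 by limma with Benjamini-Hochberg adjustment). Over the 20 alternatives that limma p ran from 0.0227 to 0.9999 and was under 0.05 in 3. OPN1SW was the member among 13 tested cone genes, beside 1.96% of all genes higher in all 6. In the cone list 10 of the 13 differences were above 0, as were 6108 of all 12204. The median of the cone list was -0.23 on HFD, 0.36 on HSD and 0.25 on HFSD. CALB1, a calcium buffer of horizontal cells, was the member among 11 horizontal cell genes, beside the same 1.96%. It was at 32.3 and 35.3 FPKM on ND and 35.8 to 48.9 in the diets, with a limma adjusted p of 0.887.

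FABP12, a fatty acid-binding protein, was at 16.9 and 16.7 FPKM on ND, 33.0 and 30.3 on HFD, 24.0 and 32.2 on HSD, and 24.0 and 32.6 on HFSD. PAQR9, of the progestin and adipoQ receptor family, was at 53.2 and 56.4 FPKM on ND, 89.0 and 91.7 on HFD, 93.2 and 71.0 on HSD, and 135 and 106 on HFSD. In both genes the ND retinas lay within a few per cent of each other. Every diet retina stood above them, as the choice of members requires. Their log2 differences were 0.76 (standard error 0.15) and 0.80 (standard error 0.14), with limma adjusted p of 0.365 and 0.218. RAB23, a small GTPase of cilia, was at 9.43 and 8.52 FPKM on ND and 11.2 to 13.1 in the diets.

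CDKL4, a kinase, VWC2L, a secreted protein with a von Willebrand factor C domain, and RASD2, a small GTPase, were low genes whose diet values reached at most 1.63, 5.07 and 2.54 FPKM. STAC3, a protein of muscle excitation-contraction coupling, was at 0.329 and 0.415 FPKM on ND and between 0.690 and 1.16 in 5 diet retinas, but at 12.1 in HSD replicate 2, the library with muscle genes. YEATS4, a chromatin reader, TARS, the threonyl-tRNA synthetase, ELF1, an ETS factor, STAMBPL1, a deubiquitinase, SPA17, a sperm and cilium protein, and CCN3, a matricellular protein, completed the 15 widest gaps. Their log2 differences ran from 0.18 to 0.45. The separation of ELF1, at 16.8 and 16.4 FPKM on ND and 18.6 to 20.1 in the diets, was lost under scaling to an equal total.

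Of all genes tested, 1.96% were higher in all 6 and 2.77% lower, for comparison with the next counts. Beside BAG2, the list of 17 heat shock proteins and co-chaperones held HSPH1, a nucleotide exchange factor of HSP70, at 34.4 and 30.2 FPKM on ND and 35.5 to 49.2 in the diets. The proteasome list held PSMB2 and PSMC6 among 25 tested genes, higher by a log2 of 0.20 and 0.13 (the separation of PSMC6 was lost under scaling to an equal total and voom), and the spliceosome list held LSM5 among 15. Of 30 tested ribosomal protein genes RPL32 was the member, and it was lower, at 46.6 and 69.6 FPKM on ND and 12.3 to 40.7 in the diets. Ribosomal protein genes have many near-identical copies, so that this value is uncertain. The antioxidant enzyme TXNRD1, the lysosomal enzyme GLA and the cyclin CCNE1 were the lower members of their lists, with log2 differences of -0.08, -0.37 and -0.67. That of TXNRD1 was not separate under scaling to an equal total or voom.

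**Figure D4:**
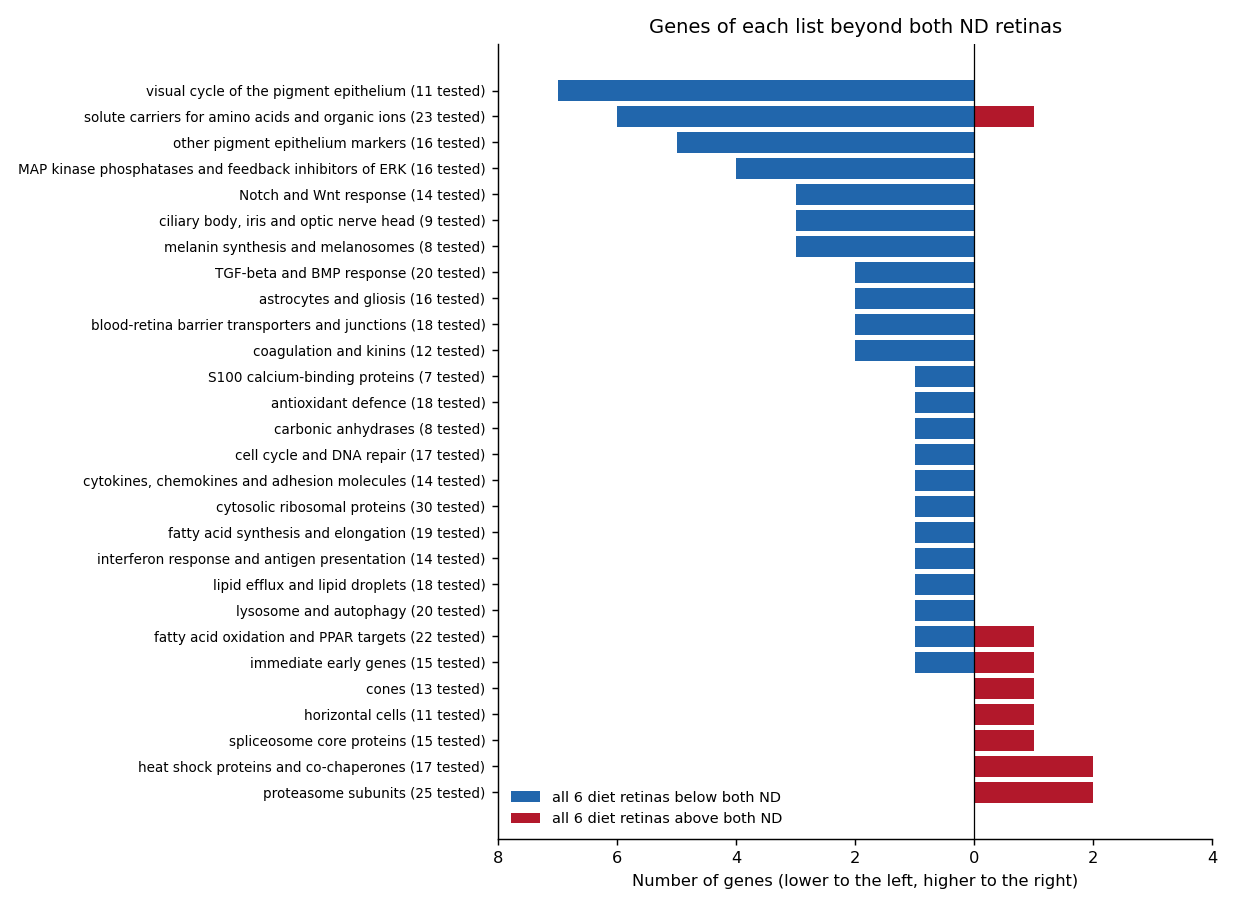
Number of genes of each list that lay below (left) or above (right) both normal chow retinas in all 6 enriched-diet retinas. Lists without such a gene are not drawn, and the number tested is given beside each name. The visual cycle list has the longest bar, with 7 of 11 genes lower.

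Of the 54 lists examined, 26 held no member, among them complement, the circadian clock, the unfolded protein response and nuclear genes of oxidative phosphorylation. Members were few among all genes, so lists of this size can hold none, and nothing is read from that number. The 10 tested complement genes all had a difference below 0, with a median log2 difference of -0.31. The list median was 0.05 on HFD, -0.46 on HSD and -0.59 on HFSD. Of the 10 genes, 1 was lower at an unadjusted limma p under 0.05. Over all lists together, 44 of 777 tested genes were lower members and 10 were higher, beside 2.77% and 1.96% of all genes tested. The lists were written with earlier results of these data known, so these counts are not independent of the data.

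**Figure D5:**
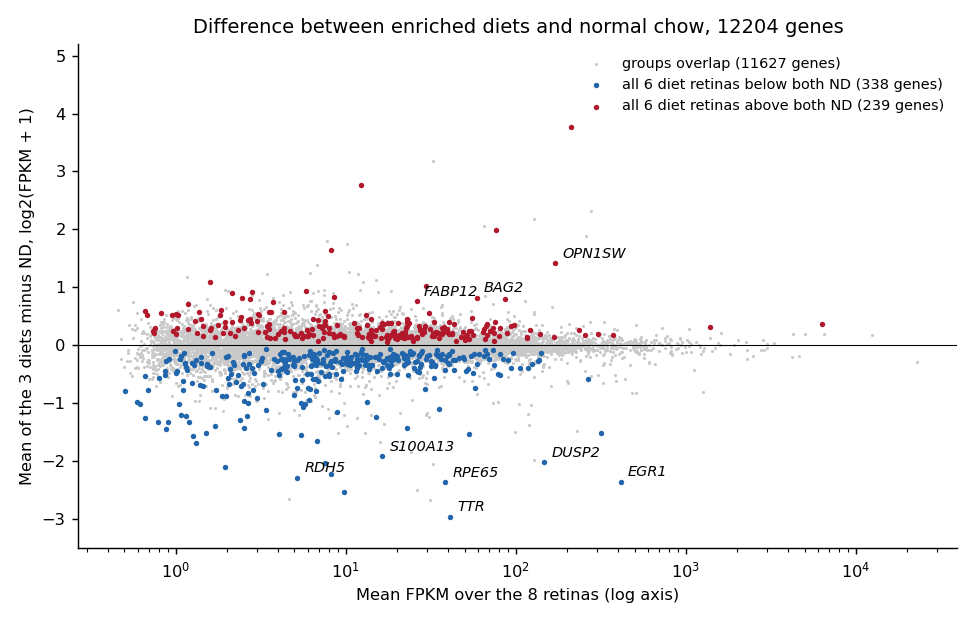
Difference between the mean of the 3 enriched diets and normal chow on the log2(FPKM + 1) scale against mean FPKM over the 8 retinas (log axis), 1 point for each of 12204 genes. More lower than higher members lie beyond 1 (39 against 7), with TTR the lowest of all genes and the gene without a symbol the highest.

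Many members differed by little. The difference was under 0.25 on the log2 scale for 119 of 338 lower and 123 of 239 higher members, as for 10264 of all 12204 genes, and over 1 for 39 and 7 members. The median size of the difference was 0.32 in lower and 0.24 in higher members and 0.097 in all genes. The gap was under 0.05 for 152 lower and 138 higher members and over 1 for 8 and 2. At the limit of membership, GUSB was just inside, with 5.87 FPKM in the lower ND retina and 5.86 in the highest diet retina, and so was PITPNB, with 21.4 in both the higher ND and the lowest diet retina. SFTPD and PLEKHB2 were just outside, with both ND retinas and 1 or more diet retinas listed at 0. PLEKHB2 reached 110 FPKM in HFD replicate 1 and 104 in HFSD replicate 1 and was listed at 0 in the other retina of each of these diets.

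Lower members were expressed less than genes at large, with a median of 8.35 FPKM over the 8 retinas, against 14.4 for higher members and 13.8 for all genes tested. The gene models of higher members were shorter, with a median of 1580 bases against 2072.5 for lower members and 1987.5 for all. The ND retinas of a member lay closer together than those of other genes, by the way members are chosen: the median distance was 0.10 on the log2 scale in lower and 0.076 in higher members, and 0.19 in all genes.

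The fold limits used in the study, a lower one of 0.65 and an upper one of about its inverse, were also applied to the mean of the 6 diet retinas against the mean of ND, with 1 added to each. Of 19293 protein-coding genes, 152 (0.788%) passed the upper limit and 214 (1.11%) the lower. Of the members, 19 higher and 67 lower genes passed. The other members lay within the limits.

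The last question was whether the diets differed from one another in the genes they shared against ND. With the F test of limma among HFD, HSD and HFSD, which uses no ND value in the contrast, 1 gene of 12204 (0.00819%) had an adjusted p under 0.05, and 1395 (11.4%) an unadjusted p under 0.05. None of the members was called. Without adjustment, 30 lower members (8.88%) and 12 higher members (5.02%) passed. Membership favours genes whose 6 diet retinas lie close together, so nothing is read from these shares beside that of all genes. The members nearest to a call were S100A13, with an adjusted p of 0.0547 in the F test of limma, and OPN1SW, with 0.130. The called gene was SRGN, serglycin, a proteoglycan of secretory granules, which was no member: it was at 38.8 and 42.3 FPKM on ND, 59.3 and 62.4 on HFD, 10.5 and 12.6 on HSD, and 6.00 and 8.29 on HFSD (limma F test, adjusted p=0.00602).

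All 3 diets differ from ND in the same direction in every member by the way members are chosen. The median log2 difference of lower members from ND was -0.27 on HFD, -0.35 on HSD and -0.32 on HFSD, and that of higher members 0.24, 0.25 and 0.25. HFD was the diet nearest to ND in 174 lower members (51.5%), where it was the nearest in 42.4% of all genes. HSD was the furthest in 151 lower members (44.7%, against 32.3% of all genes), HFSD in 110 (32.5% against 35.7%) and HFD in 77 (22.8% against 32.0%). In higher members HFD was the nearest in 42.7%, and the furthest was HSD in 28.9%, HFSD in 40.2% and HFD in 31.0%. These shares rest on the values that chose the members, and nothing is read from them. In the visual cycle list the median log2 difference from ND was -0.64 on HFD, -1.28 on HSD and -1.56 on HFSD. S100A13, GJA1, CIDEA, TIMP3 and SLCO1A2 are examples with HFD between ND and the sucrose diets, whereas RPE65, MFRP and STRA6 showed no such order.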

How the data were processed

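The authors trimmed the reads, mapped them with TopHat2 and computed FPKM per gene, and one FPKM value per library was deposited for each of 25666 genes and 8 libraries (0 value columns were left without a sample). FastQC is named beside TopHat2 in the submitters' processing notes, and versions are not given in the sources used here. Genes are given by symbol without coordinates, since the build of the table was not established, and 5996 of 19293 protein-coding genes have no symbol.

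FPKM was used as deposited. Depth and fragments were recovered from the steps of the values (99.9% of values above 0 came out whole within 0.003 of a fragment), cover counting error only and served 1 alternative. limma 3.58.1 in R 4.3.3 was fitted to log2(FPKM + 1) with a mean-variance trend, 4 diet means and 4 residual degrees of freedom, on protein-coding genes with an FPKM of 1 or more in 2 libraries at the least. A pseudocount of 1 understates changes of low genes. The contrast was the mean of HFD, HSD and HFSD minus ND, and an F test compared the 3 diets. Benjamini-Hochberg adjustment ran over all genes tested, with 0.05 as the limit. An exact permutation test of 6 against 2 libraries could not go below p=0.0714 (two-sided), so none was run on single genes. Both steps were tested on simulated data.

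The members and the 54 gene lists were chosen with earlier results of these data known. The genes named were those with an adjusted p under 0.05, the 15 with a symbol and the widest gap in each direction, and the list genes that lay beyond both ND libraries in all 6 diet libraries. Others are named to show what did not differ, or as stated. Alternatives were other pseudocounts, filters and scalings, voom, a fit of 2 groups, a replicate block, and leaving out each library or each diet. Figures were drawn with matplotlib 3.10.9. Some genes are not reported here.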

Additional observations from a re-analysis of the deposited data

Results flagged for a closer look

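In 5 of the 68 named genes checked, 1 of the 6 enriched-diet retinas lay far from the other 5. The measure is the gap to the nearest retina as a share of the whole range, set against the 95% critical value of Dixon's test, which chance passes in about 1 of 20 such groups. STAC3 was highest in HSD replicate 2 (0.881), the library in which the summed muscle genes stood at 768 FPKM. The part of muscle RNA in that value was not tested. KLF10 was highest in HFD replicate 2 (0.835), at 6.18 FPKM. LSM5, a core protein of the spliceosome, was highest in HFD replicate 1 (0.802), at 89.5 FPKM against 63.8 to 68.2 in the other diet retinas. DUSP4 was lowest in HSD replicate 2 (0.684), at 9.26 FPKM, and TNFSF13B was lowest in HFD replicate 2 (0.645), at 0.269 FPKM.

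SRGN differed among the 3 enriched diets, with an adjusted p of 0.00602 in the F test of limma. It was highest on HFD and lowest on HFSD, and the 2 retinas of each diet lay close together.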

How the results depend on the processing

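Over 20 alternatives none of 70 genes refitted changed direction, and the gene without a symbol kept its call in all 20. The number of members rises by construction with fewer libraries. Each retina left out in turn gave 302 to 1665 higher and 385 to 1800 lower members, the upper ends without ND replicate 1. Without ND replicate 2 these were 1364 and 1396, and without HFD replicate 1 they were 671 and 723. Without a whole diet there were 1382 and 1418 (HFD), 426 and 537 (HSD), or 451 and 484 (HFSD). Scaling each library to an equal total gave 206 and 337 members, of which 126 and 226 were among the 239 and 338 here. With voom 174 and 248 of 269 and 301 were shared, so members with narrow gaps depend on the scaling.

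Calls by limma were 1 to 3 higher and 0 to 4 lower with each retina left out, the 3 without ND replicate 2 and the 4 without HFSD replicate 1. There were 3 higher and 8 lower with voom and 1 higher and 3 lower with 2 groups, where no F test exists. Without HFD there were 2 and 2, without HSD 1 and 0, and without HFSD 2 and 3. The F test among diets called 2 genes with a pseudocount of 0.1, 5 with a filter of 5 FPKM, 0 without HFD (422 at an unadjusted p under 0.05), and 0 (without HFD replicate 2, 1977 unadjusted) to 15 (without HSD replicate 1) with each retina left out. Where a call was 0 lower, between 248 and 505 genes had an unadjusted p under 0.05.

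The fold limits passed 706 higher and 731 lower genes with a pseudocount of 0.1 and 266 and 315 with 0.5. With each retina left out they passed 120 to 468 higher and 199 to 398 lower, the extremes being the fits without HSD replicate 2 and ND replicate 1, and without HSD replicate 1 and ND replicate 2. Without HFD 388 were lower.

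The labels number the retinas 1 and 2 in each diet. Deviations of retinas with the same number correlated between -0.16 and 0.081, so that they share only a number. With the replicate block limma called 1 gene higher and 0 lower (355 lower at an unadjusted p under 0.05), and the F test called 3. With 2 retinas per diet, low genes and narrow gaps are the least certain. The cause of these changes was not tested.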

Other observations

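The mitochondrial genome was looked at after its symbols had been seen among the higher members. It encodes 13 proteins of the respiratory chain and ATP synthase, and all 13 messages were tested. ND3, COX2 and ATP8 were higher in all 6 diet retinas and none was lower, where 1.96% of all genes tested were higher. ND3, a subunit of complex I, was at 1226 and 1126 FPKM on ND and from 1277 to 1646 in the diet retinas. ATP8 was at 53.4 and 68.7 FPKM on ND and from 69.6 to 106 in the diets, and it was the gene of the 13 with an unadjusted p under 0.05 (adjusted p=0.962 in limma). The sum over the 13 messages overlapped, at 34727 and 40628 FPKM on ND and 35140 to 49515 in the diets. ATP8 overlaps ATP6 on the mitochondrial genome, and fragments on the shared bases cannot be assigned to either.

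Outside protein-coding genes, 2472 genes of other kinds reached the same filter, and 76 of them (3.07%) were higher and 52 (2.1%) lower in all 6 diet retinas than in both ND retinas, beside 1.96% and 2.77% of protein-coding genes.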
